A study of Mus musculus with 9 samples.

Results

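Heat shock proteins and their J-domain partners are the chaperones that fold new proteins, refold damaged ones and hold aggregation-prone ones. Their genes were taken from the tibia expression table by symbol, as every row beginning with Hsp90, Hspa, Hspb, Hspd, Hspe or Hsph and a number, or with Dnaja, Dnajb or Dnajc and a number. The rule gave 69 of 18272 genes, namely 3 HSP90, 11 HSP70, 3 HSP110, 8 small heat shock, 2 chaperonin, 4 DNAJA, 13 DNAJB and 25 DNAJC genes. The mice were female C57BL/6J, bought at 10 to 11 weeks of age, and each of the 3 groups gave 3 RNA-seq libraries, 1 for the tibia of each mouse. NGT (normal glucose tolerance) mice received the citrate vehicle and then saline. T1D (type 1 diabetes) mice received 1 injection of streptozotocin (STZ), which kills pancreatic beta cells and with them the source of insulin, and then saline. Lira mice received the same STZ injection and then liraglutide, a GLP-1 receptor agonist given under the skin, at 0.6 mg/kg/day. Lira mice 1 and 2 are labelled with 8 weeks of liraglutide and Lira mouse 3 with 9 weeks, whereas the methods describe a single length of treatment for the group, the shorter one. STZ destroys beta cells chemically, so T1D mice model insulin deficiency and not the autoimmune disease, and every Lira mouse carries it too.

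HSP70 proteins bind short unfolded stretches of a client in a cycle driven by ATP. J-domain proteins (DNAJ) bring the client and trigger ATP hydrolysis, while HSP110 proteins release the nucleotide and so the client. HSP90 takes over clients that are nearly folded, small heat shock proteins hold unfolding proteins without using ATP, and the chaperonin of mitochondria encloses a client in a chamber. Heat shock factor 1 induces the cytosolic genes when unfolded proteins accumulate, by binding heat shock elements, whereas the chaperones of the endoplasmic reticulum (ER) answer to the unfolded protein response through ER stress elements. In skeletal muscle, several small heat shock proteins sit at the sarcomere, which is under constant mechanical load.

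The libraries held 13086373 to 16528394 expected counts, and the 69 chaperone genes together took from 0.8% of them in T1D mouse 3 to 1.75% in T1D mouse 1. Although the study's methods describe bones cleaned of muscle, 19 skeletal muscle markers took 14.6% to 26% of the counts. The osteocyte markers Mepe and Sost were at 0 in at least 1 library, and the 4 osteocyte markers summed to only 0.779 to 13.5 CPM, the counts divided by the scaled library total and multiplied by 1000000. T1D mouse 1 stood apart from the other 8 libraries, with the lowest sum of muscle markers and the highest sums of osteoblast, macrophage, osteoclast and adipocyte markers. In bulk tissue, fewer cells of a type and less RNA per cell cannot be told apart. CPM values were scaled by TMM factors of 0.883 to 1.25, and 3 counts corresponded to 0.163 to 0.237 CPM.

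Levels of different genes were compared per length, as the deposited FPKM, which divides fragments by transcript length and library total. The 7 expressed small heat shock genes held 46.7% of the summed chaperone FPKM over the 9 libraries, although they are few. The small heat shock sum ran from 1364 FPKM in T1D mouse 3 to 5462 FPKM in T1D mouse 1. The HSP70 genes held 20.9%, HSP90 11.2%, DNAJC 8.4%, DNAJB 5.88%, DNAJA 3.2%, the chaperonin pair 2.81% and HSP110 0.944%. Hspb6, a small heat shock protein of muscle (HSP20), was at 1565 FPKM (SD 607, n = 9 libraries), the highest mean of the 69 genes. Next came Hspa8, the constitutive cytosolic HSP70 (HSC70), at 874 FPKM (SD 176), Hsp90ab1, the constitutive cytosolic HSP90, at 536 FPKM (SD 85.8), and Hspb7, a small heat shock protein of heart and muscle, at 515 FPKM (SD 241). Hsp90ab1 and Hspb7 differed by less than the spread of either. Hspb1 (HSP27) followed at 341 FPKM (SD 358), a spread larger than its mean, then Hspb8, which works with the co-chaperone Bag3 in removing damaged sarcomere proteins, at 246 FPKM (SD 60.3), and Hspa9, the mitochondrial HSP70 (mortalin), at 202 FPKM (SD 33.7). The place of Hspb1 above Hspb8 rests on T1D mouse 1, where Hspb1 was at 1278 FPKM, against 127 to 350 FPKM in the other libraries.

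The constitutive HSP90 and HSP70 of the cytosol stood above their inducible relatives in each of the 9 libraries. Hsp90aa1, the inducible HSP90, was at 54.2 FPKM (SD 32.2) against 536 FPKM for Hsp90ab1. The inducible HSP70 genes Hspa1a and Hspa1b were at 7.81 FPKM (SD 6.10) and 5.12 FPKM (SD 5.49), against 874 FPKM for Hspa8. Among J-domain genes, Dnajb5 led DNAJB at 107 FPKM (SD 17.4) and Dnaja2 led DNAJA at 89.9 FPKM (SD 11.7). Dnajb1, the J-domain partner induced together with Hspa1a and Hspa1b, was at 3.84 FPKM (SD 2.05). The DNAJC genes, the most varied class, ran from 0.151 FPKM for Dnajc6 (auxilin, which uncoats clathrin vesicles) to 68.1 FPKM for Dnajc15, a J-domain protein of the mitochondrial inner membrane. Dnajc15, Dnajc7 at 54.0 FPKM (SD 7.71) and Dnajc19 at 53.3 FPKM (SD 6.52) led that class, and the last 2 did not differ beyond their spread. Dnajc7 couples HSP70 to HSP90, and Dnajc19 belongs to the import motor of mitochondria.

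**Figure D1:**
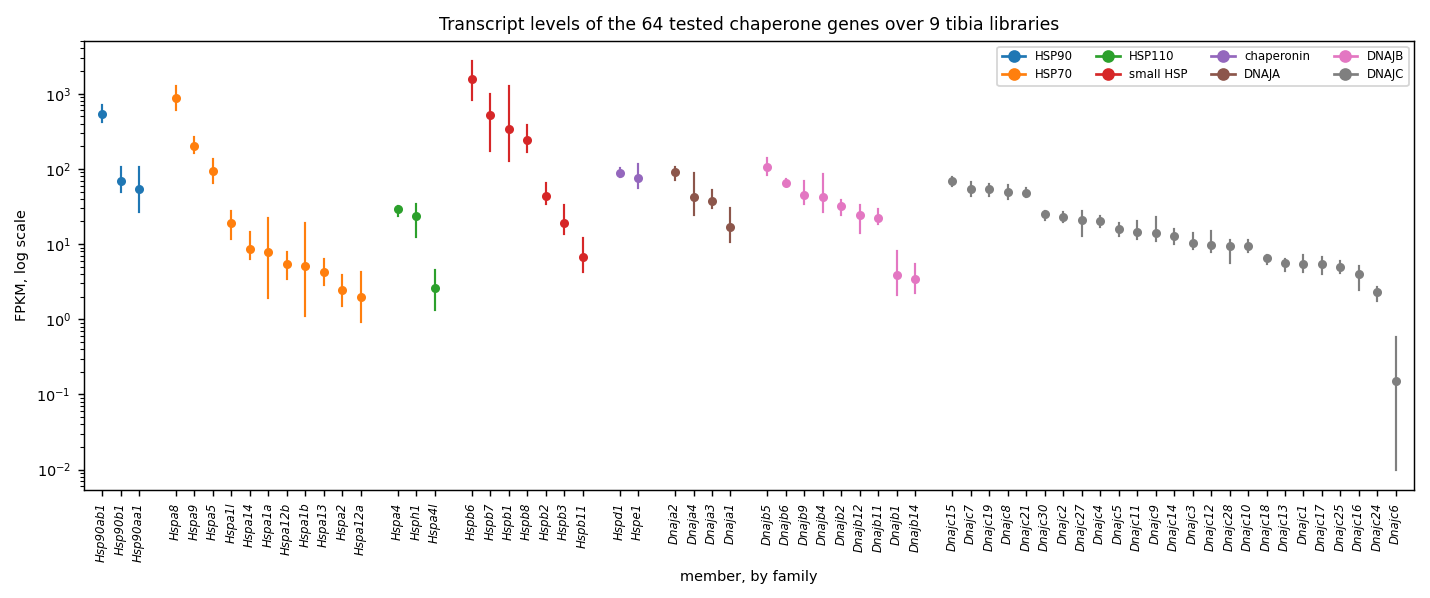
Deposited FPKM on a log axis of the 64 chaperone genes with enough counts to be tested, ordered by mean within 8 families. Points are means over 9 libraries and lines run from the lowest to the highest library above 0; the small heat shock genes Hspb6, Hspb7, Hspb1 and Hspb8 and the constitutive Hspa8 and Hsp90ab1 stand at the top, and Dnajc6, listed at 0 in NGT mouse 2, at the bottom.

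Of the 69 genes, 64 had at least 10 counts in at least 3 libraries and were tested. The 5 below that limit were Hspb9 with 0 to 4 counts a library, Dnajb7 with 0 to 4, Dnajb8 with 0 to 1, and Dnajb3 and Dnajb13, each with 0 to 21 counts. Hspb9, Dnajb8 and Dnajb13 are best known from testis. Dnajb3 and Dnajb13 both had their highest count, 21, in Lira mouse 3, and both were at 0 in NGT mouse 2, T1D mouse 2 and Lira mouse 2.

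For 63 of the tested members a ratio of the highest to the lowest library could be formed, since Dnajc6 was at 0 in 1 library. Its median was 1.78, and it was over 2 in 27 members (42.9%), beside 54.5% of 13577 genes in all. Dnajc10, an ER reductase with a J domain, varied least, from 35.4 to 40.4 CPM over the 9 libraries, a ratio of 1.14. Hspa1b varied most, with a ratio of 12.5, followed by Hspa1a at 8.18 and Hspb1 at 7.31. With TMM scaling, T1D mouse 1 held the highest value of 18 of the 64 members (28.1%, beside 20.7% of all tested genes) and also the lowest value of 21 (32.8%, beside 23.8%). Its highest values included Hspa1a, Hspa1b, 6 small heat shock genes and the ER genes Hspa5, Hsp90b1 and Dnajc3, and its lowest values included 13 DNAJC genes. By library size it held the highest value of 29 members (45.3%, beside 35.1% of genes) and the lowest of 5 (7.81%, beside 8.72%), of which Dnajc16, Dnajc27 and Dnajc28 are the 3 DNAJC genes.

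**Figure D2:**
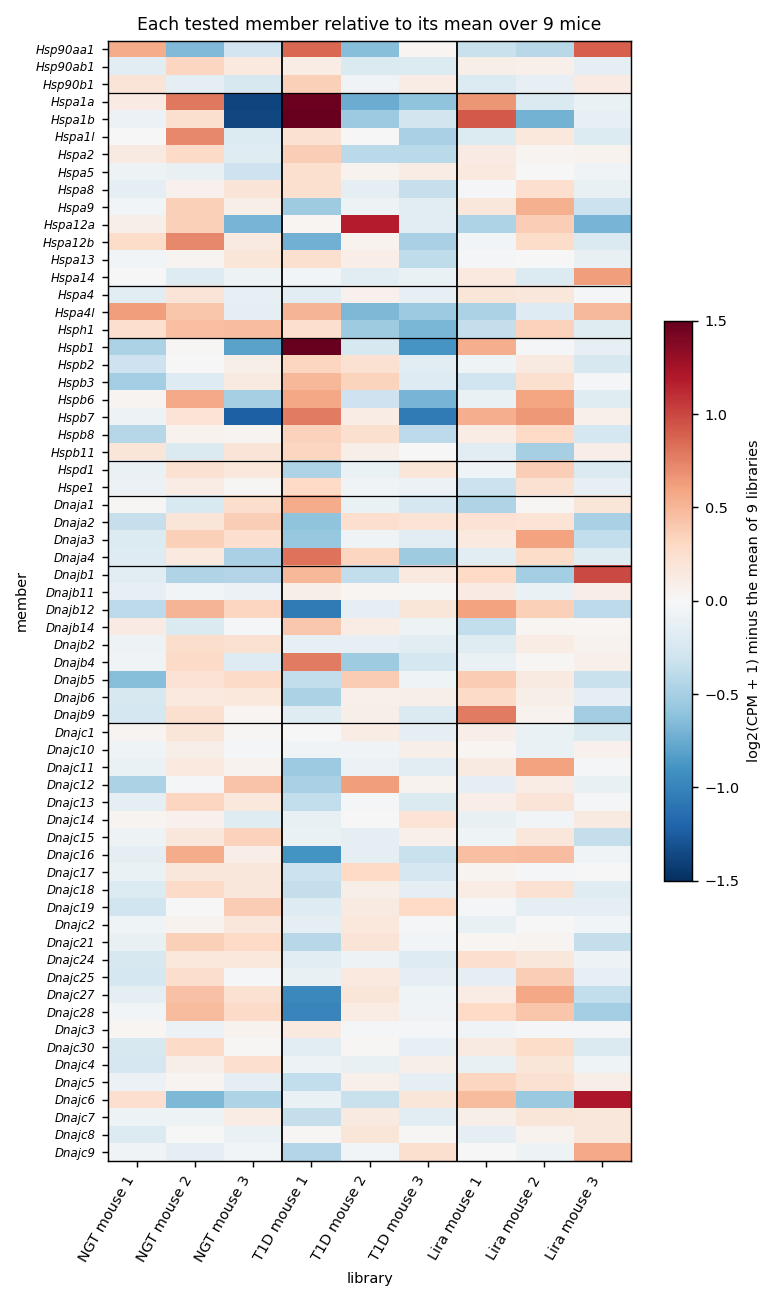
Each of the 64 tested members, in 8 families separated by lines, as log2(CPM + 1) minus its mean over 9 libraries, for the 3 NGT, 3 T1D and 3 Lira mice. Colours stop at 1.5 above and below the mean; T1D mouse 1 is the darkest red for Hspa1a, Hspa1b and Hspb1 and among the darkest blue for Dnajc16, Dnajc27, Dnajc28 and Dnajb12.

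The heat-inducible genes are introduced by the stretches before their starts, since the element that heat shock factor 1 binds is built of 5-base units, NGAAN, that alternate in orientation. RefSeq windows (GRCm38.p6, 250 bases before the start to 50 after) were given for 57 of the 69 members. The 12 members with none were Hsp90aa1, Hsp90ab1, Hspa8, Hspa9, Hspa13, Hspb2, Dnajc2, Dnajc5, Dnajc11, Dnajc12, Dnajc18 and Dnajc30. A run of 3 adjoining alternating units, searched on both strands, was present in 4 members (7.02%), Hspd1, Hspe1, Hsph1 and Dnajb6, beside 0.659% of 27025 genes with a window. A run of 4 units was present in Hspd1 and Hspe1 alone among the members (3.51%), beside 0.0259% of genes. A run of 2 units, which is short enough to be common, was present in 15 members (26.3%) and in 16.9% of genes. Each longer run contains the shorter ones. Dnajb1 and Hspa4l, which belong to the heat-inducible list, had windows without even a run of 2 units. The stretches of the 5 genes that follow, all 5′ to 3′ on the strand of the gene and all before its start, show GAA and TTC of the units in capitals. The Hspe1 stretch lies before the starts of both chaperonin genes, which are transcribed away from each other, so it is also the Hspd1 promoter read backwards.
Hspe1, chr1:55088038-55088097, plus strand: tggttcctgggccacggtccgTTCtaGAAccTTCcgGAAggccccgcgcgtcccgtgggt
Dnajb6, chr5:29735831-29735885, plus strand: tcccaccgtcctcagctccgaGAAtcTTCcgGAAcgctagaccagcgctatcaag
Hspb1, chr5:135887781-135887850, plus strand: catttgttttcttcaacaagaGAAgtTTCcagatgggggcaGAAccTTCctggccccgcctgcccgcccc
Hspa1a, chr17:34972232-34972281, minus strand: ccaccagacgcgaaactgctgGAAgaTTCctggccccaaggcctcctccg
Hspa1b, chr17:34959314-34959363, minus strand: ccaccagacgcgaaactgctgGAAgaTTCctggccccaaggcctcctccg
The Hspa1a and Hspa1b stretches are the same, and their 250 bases before the start were identical at 247 (98.8%). Their longest open reading frames were identical at 1918 of 1926 aligned bases (99.6%), with a shared run of 638 bases, so reads can be shared between them and the value of either alone is uncertain. A match of letters is a description and not a site of binding in these bones.

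In the heat-inducible group no member was called in any comparison, and 1 mouse set its largest differences. A gene was called where edgeR's quasi-likelihood test, fitted over 13960 genes, gave a Benjamini-Hochberg adjusted p under 0.05 and a fold change over 2. In T1D against NGT 0 of 64 members and 0% of all tested genes were called. Hspa1a and Hspa1b together summed to 29.2, 43.9 and 9.66 CPM in NGT mice 1 to 3, 93.9, 17.0 and 19.8 CPM in T1D mice and 49.3, 21.0 and 26.1 CPM in Lira mice. T1D mouse 1 stood above the other 8 mice, while T1D mice 2 and 3 lay inside the NGT range. For Hspa1b alone the log2 fold change of T1D against NGT was 1.18 (SE 0.80, edgeR adjusted p = 0.977), and without T1D mouse 1 it was -0.16. For Hspa1a it was 0.34 (SE 0.73) and, without that mouse, -0.82.

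Hspb1, which binds unfolding proteins and actin and is induced by heat, had the largest log2 fold change among the members in T1D against NGT. Its values were 166, 233 and 132 CPM in NGT mice 1 to 3, 907, 195 and 124 CPM in T1D mice, and 336, 228 and 212 CPM in Lira mice. Means were 177 ± 51.4, 409 ± 433 and 259 ± 67.5 CPM (SD, n = 3). T1D mouse 1 was 2.7 times the next highest library, while T1D mouse 2 lay within the NGT mice and T1D mouse 3 was the lowest of all 9 libraries. The log2 fold change was 1.21 (SE 0.67, edgeR adjusted p = 0.977) and -0.15 without T1D mouse 1. Against T1D, the Lira value was -0.66 (SE 0.66) with all mice and 0.70 (SE 0.34) without that mouse, so its direction rests on 1 library.

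The T1D mouse 1 library differed in cell type markers as well. Macrophage markers (6 of 6 measured, none at 0) summed to 767 CPM in it, against 27.4 to 102 CPM in NGT mice, 70.4 and 86.6 CPM in the other T1D mice and 71.3 to 113 CPM in Lira mice. Osteoblast markers (9 of 9 measured, Bglap and Sp7 at 0 in at least 1 library) summed to 5836 CPM, against 210 to 1456 CPM in NGT mice, 808 and 968 CPM in the other T1D mice and 428 to 1388 CPM in Lira mice. Muscle markers (19 of 19 measured, none at 0) summed to 117147 CPM, the lowest, against 149320 to 295106 CPM in NGT mice, 228033 and 283311 CPM in the other T1D mice and 158424 to 261774 CPM in Lira mice. The part of these markers in the values of Hspb1, Hspa1a and Hspa1b was not tested.

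Dnajb1, Hsp90aa1 and Dnaja1 were also highest in libraries that stood apart. Dnajb1, the main inducible J-domain partner of HSP70, was at 9.27, 7.35 and 7.44 CPM in NGT mice, 15.1, 7.86 and 11.7 CPM in T1D mice and 13.1, 7.01 and 21.7 CPM in Lira mice. The groups overlapped, and T1D mouse 1 and Lira mouse 3 were highest. Hsp90aa1 was at 198, 85.1 and 110 CPM in NGT mice, 245, 86.2 and 138 CPM in T1D mice and 107, 101 and 251 CPM in Lira mice. In it, NGT mouse 1, T1D mouse 1 and Lira mouse 3 stood well above the other 6, 1 in each group. These were also the 3 libraries with the lowest sums of muscle markers, 149320, 117147 and 158424 CPM, and the part of that in Hsp90aa1 was not tested. Dnaja1, which brings clients to HSP70 in the cytosol, ran from 40.3 CPM in Lira mouse 1 to 82.6 CPM in T1D mouse 1, with a log2 fold change of 0.08 (SE 0.26) in T1D against NGT.

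**Figure D3:**
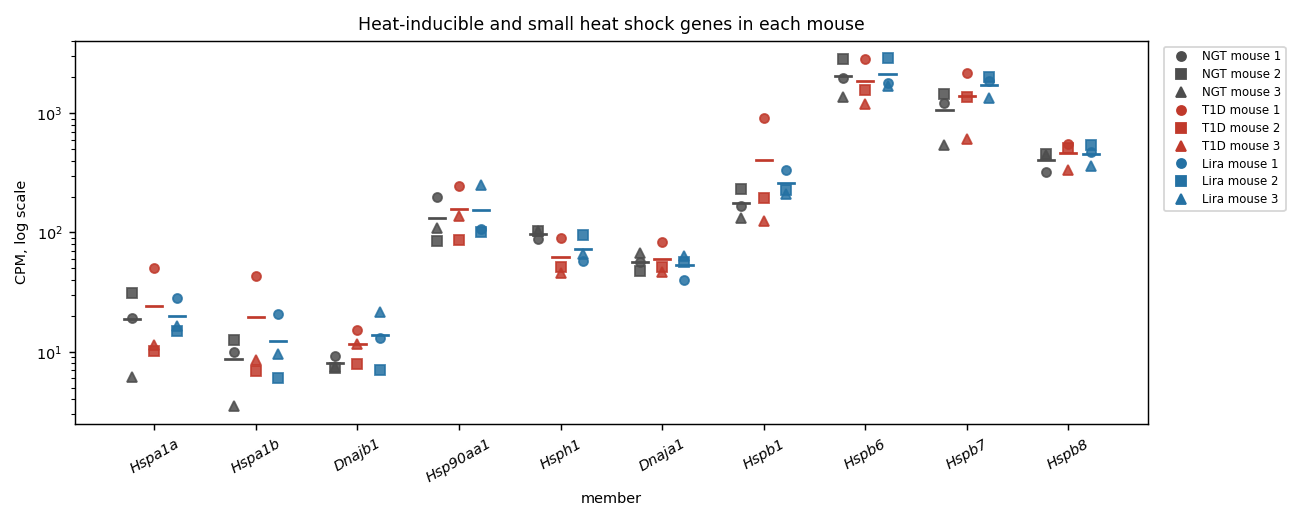
CPM on a log axis of 10 heat-inducible and small heat shock genes in each of the 9 mice; colours give the group, marker shapes the mouse number and bars the group means. T1D mouse 1 (red circle) is the highest library for Hspa1a, Hspa1b and Hspb1, while Hsph1 has its highest mean in the NGT mice.

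The HSP110 genes release nucleotide from HSP70. In T1D against NGT 3 of 3 had a negative log2 fold change with TMM scaling, with a median of -0.50 beside 0.02 over all 13960 genes, but by library size alone 1 of 3 was positive and the median was -0.38. Hsph1 (HSP105) was at 89.0, 102 and 103 CPM in NGT mice, 89.2, 51.0 and 45.9 CPM in T1D mice and 58.2, 94.9 and 65.6 CPM in Lira mice. T1D mice 2 and 3 stood below every NGT mouse and T1D mouse 1 beside NGT mouse 1. Its log2 fold change was -0.66 (SE 0.28, edgeR adjusted p = 0.977), and -1.02 (SE 0.23, edgeR adjusted p = 1) without T1D mouse 1. The exact two-sided permutation test over the 6 mice gave p = 0.2. Hspa4l, a closely related HSP110, was at 25.8, 22.2 and 14.6 CPM in NGT mice, 23.6, 9.82 and 10.9 CPM in T1D mice and 11.5, 14.1 and 23.2 CPM in Lira mice. T1D mice 2 and 3 were again lowest, and the log2 fold change was -0.50 (SE 0.41) with all mice and -1.01 (SE 0.36, edgeR adjusted p = 1) without T1D mouse 1. Hspa4, the third member, had a log2 fold change of -0.06 (SE 0.16). Leaving out T1D mouse 1 thus took the log2 fold changes of Hsph1 and Hspa4l further from 0 and that of Hspb1 close to it.

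Among the other HSP70 genes, Hspa12b, a distant relative found mainly in endothelial cells, had the lowest edgeR p of the 64 members in T1D against NGT before adjustment. It was at 17.8, 24.6 and 16.0 CPM in NGT mice, 8.43, 15.1 and 10.1 CPM in T1D mice and 14.1, 17.8 and 12.4 CPM in Lira mice. Every T1D mouse lay below every NGT mouse and Lira mice overlapped both. Means were 19.5 ± 4.53 and 11.2 ± 3.48 CPM (SD, n = 3), and the log2 fold change was -0.79 (SE 0.28, edgeR adjusted p = 0.977). The exact two-sided permutation p was 0.1, the smallest that 3 mice against 3 allow. By library size the lowest NGT mouse, at 14.1 CPM, fell below T1D mouse 2, at 15.0 CPM, and without T1D mouse 1 the log2 fold change was -0.62 (SE 0.29), no longer under 0.05 before adjustment. The 4 endothelial markers, none of them at 0, summed to 220 to 330 CPM in NGT mice and 215 to 283 CPM in T1D mice, and their part was not tested. Hspa8, the constitutive HSP70 and the most abundant one, was at 1648, 1890 and 2071 CPM in NGT mice, 2137, 1654 and 1425 CPM in T1D mice and 1792, 2148 and 1673 CPM in Lira mice. The groups overlapped fully, and the log2 fold change was -0.10 (SE 0.25). Hsp90ab1 likewise ran from 1145 to 1672 CPM, with a log2 fold change of -0.21 (SE 0.23).

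The small heat shock genes had positive log2 fold changes for 6 of 7 members in T1D against NGT (median 0.22) with all mice, and for 3 of 7 (median -0.03) without T1D mouse 1. Under library size alone 7 of 7 were positive, with a median of 0.34. With all mice and no replicate block, edgeR gave no member an unadjusted p under 0.05 in any comparison. Hspb7, which keeps sarcomere proteins such as filamin soluble, was at 1209, 1461 and 545 CPM in NGT mice, 2193, 1372 and 609 CPM in T1D mice and 1859, 1993 and 1336 CPM in Lira mice. Hspb6 was at 1974, 2854 and 1363 CPM in NGT mice, 2863, 1550 and 1185 CPM in T1D mice and 1796, 2893 and 1698 CPM in Lira mice. With TMM scaling mouse 3 was the lowest of its group for both genes, and the groups overlapped. By library size Lira mouse 1, at 1648 CPM, lay below Lira mouse 3, at 1905 CPM, for Hspb6. NGT mouse 3 and T1D mouse 3 held the 2 highest sums of muscle markers, 295106 and 283311 CPM, and they were also the lowest libraries for Hspb7 and Hspb6, in that order. The part of the muscle list in either gene was not tested. Hspb8 was steadier, at 323 to 451 CPM in NGT mice, 332 to 554 CPM in T1D mice and 363 to 538 CPM in Lira mice. Hspb2 and Hspb3, which form a complex in muscle, ran from 27.2 to 42.8 CPM and from 9.52 to 20.1 CPM. Hspb11, a subunit of the intraflagellar transport complex despite its name, ran from 4.75 to 9.19 CPM. Hspb2 overlaps the crystallin gene Cryab, and Hspb6 overlaps Lin37. The strand setting of the counting is not given in the sources used here, and 15 of the 69 members overlap another gene of the file.

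The other element was searched for too. Of the 6 genes on a fixed ER stress list, all with a window, 3 held it and 3 (Dnajb9, Dnajb11 and Dnajc10) did not. CCAAT and CCACG with 9 bases between them, searched on both strands, were found in the windows of Hspa5, Hsp90b1 and Dnajc3 (5.26% of 57 members), beside 0.137% of 27025 genes. The stretches show these 5-base boxes in capitals, 5′ to 3′ on the strand of the gene, and Hsp90b1 holds the element once in each orientation.
Hspa5, chr2:34772005-34772063, plus strand: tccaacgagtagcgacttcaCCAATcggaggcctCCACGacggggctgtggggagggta
Hsp90b1, chr10:86705513-86705676, minus strand: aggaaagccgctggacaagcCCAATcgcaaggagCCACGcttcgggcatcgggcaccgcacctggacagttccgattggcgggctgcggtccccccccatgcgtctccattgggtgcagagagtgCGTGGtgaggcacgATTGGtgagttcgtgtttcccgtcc
Dnajc3, chr14:118937807-118937865, plus strand: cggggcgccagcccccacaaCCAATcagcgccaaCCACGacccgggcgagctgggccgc

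Hspa5 (BiP), the HSP70 of the ER, was at 220, 215 and 187 CPM in NGT mice, 274, 241 and 250 CPM in T1D mice and 258, 232 and 224 CPM in Lira mice. Every STZ-treated mouse, with or without liraglutide, lay above every NGT mouse. The step was small. Means were 207 ± 17.6, 255 ± 17.0 and 238 ± 17.8 CPM (SD, n = 3), and the log2 fold change of T1D against NGT was 0.30 (SE 0.15, edgeR adjusted p = 0.977). By library size the order was lost, with NGT mouse 1 at 265 CPM above T1D mice 2 and 3 at 240 and 227 CPM. Hspa5 also overlaps Rabepk. Of the other 5 genes on the ER stress list, Dnajb11, which delivers clients to BiP, was at 40.5 to 43.1 CPM in NGT mice and 44.7 to 46.9 CPM in T1D mice, without overlap, and its log2 fold change was 0.13 (SE 0.12). Hsp90b1 (GRP94), the HSP90 of the ER, was at 211, 167 and 156 CPM in NGT mice, 237, 178 and 200 CPM in T1D mice and 161, 170 and 201 CPM in Lira mice. Those groups overlapped. Dnajc3, which protects cells during ER stress, stayed between 50.3 and 59.3 CPM, and Dnajc10 between 35.4 and 40.4 CPM. Dnajb9, a strongly inducible target of the unfolded protein response, was at 68.2 to 97.0 CPM in NGT mice, 70.3 to 87.6 CPM in T1D mice and 56.7 to 141 CPM in Lira mice. Its log2 fold change of T1D against NGT was -0.11 (SE 0.31), against the sign of Hspa5.

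Among the mitochondrial chaperones, Hspa9, Dnaja3 and Hspd1 had negative log2 fold changes of T1D against NGT and Hspe1 a positive one, and none was called. Hspa9, which pulls imported proteins into the matrix, was at 596, 783 and 649 CPM in NGT mice, 422, 581 and 546 CPM in T1D mice and 688, 890 and 489 CPM in Lira mice. Every T1D mouse lay below every NGT mouse, and Lira mouse 3 lay inside the T1D range. The log2 fold change was -0.39 (SE 0.26, edgeR adjusted p = 0.977), and by library size the groups overlapped. Dnaja3 (TID1), the J-domain partner of Hspa9, was at 83.6, 124 and 115 CPM in NGT mice, 64.9, 91.8 and 86.4 CPM in T1D mice and 107, 147 and 74.3 CPM in Lira mice. Its log2 fold change was -0.41 (SE 0.27). The chaperonin genes share 1 promoter stretch, and as annotated they overlap each other. Hspd1 (HSP60), the barrel, was at 192 to 242 CPM in NGT mice and 150 to 235 CPM in T1D mice, with a log2 fold change of -0.20 (SE 0.23). Hspe1 (HSP10), the lid, was at 52.8 to 60.7 CPM in NGT mice and 52.8 to 69.4 CPM in T1D mice, with a log2 fold change of 0.05 (SE 0.18). In T1D mouse 1, Hspd1 had its lowest value of the 9 libraries with TMM scaling and Hspe1 its highest. By library size Lira mouse 1, at 181 CPM, was the lowest for Hspd1. Both log2 fold changes were smaller than their standard errors, and the difference between the genes was not tested.

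**Figure D4:**
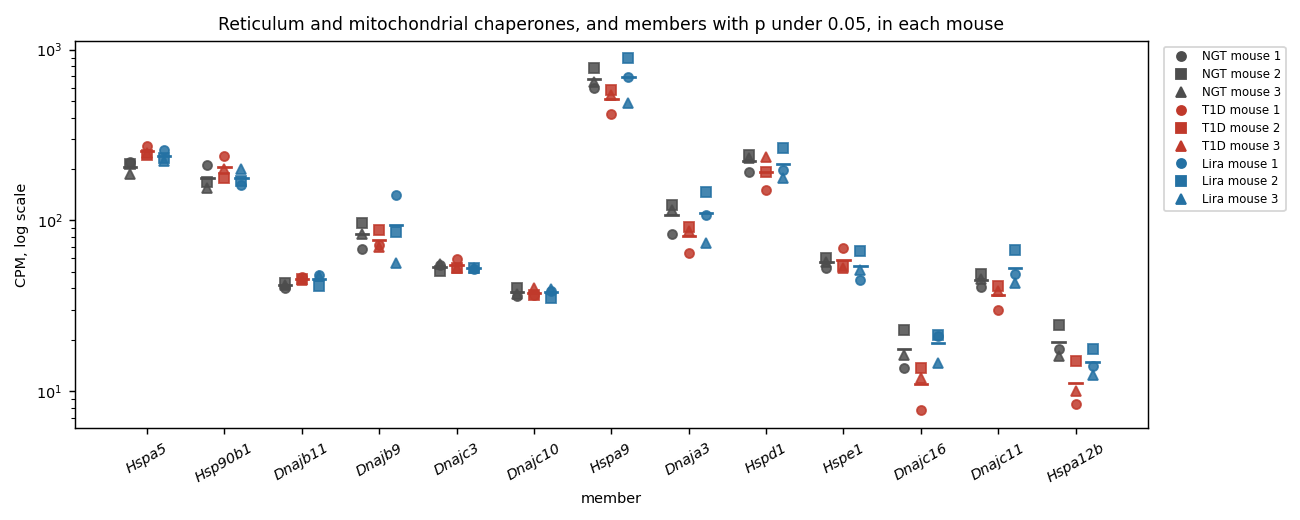
CPM on a log axis of ER and mitochondrial chaperones and of Dnajc16, Dnajc11 and Hspa12b in each of the 9 mice; colours give the group, marker shapes the mouse number and bars the group means. With TMM scaling the 3 T1D mice lie above the 3 NGT mice for Hspa5 and below them for Hspa9, Dnajc16 and Hspa12b; by library size only Dnajc16 keeps this.

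Over all 64 members, the median log2 fold change of T1D against NGT was -0.05 beside 0.02 over all genes, and 27 members (42.2%) were positive beside 52.1% of genes. By library size the median was 0.03 beside 0.09, and 36 of 64 members were positive beside 62% of genes, so the sign of the median depends on the scaling. Of the members, 0 were higher and 3 lower at an unadjusted p under 0.05, namely Hspa12b, Dnajc16 and Hsph1, beside 2.36% of genes higher and 1.6% lower, or 552 genes in all. Without T1D mouse 3 these were 3 higher (Hspb1, Hspb3 and Dnaja4), beside 3.46% of genes, and 0 lower, beside 1.54%. With all mice, DESeq2 gave Hspa12b, Dnajc16 and Hsph1 as lower, beside 2.11% of genes, and 1 member, Hspa5, as higher, beside 2.88%. Groups did not overlap for 3 members that were higher (Hspa5, Dnajb11 and Dnajc8) beside 3.52% of genes, and for 4 that were lower (Hspa9, Hspa12b, Dnajb2 and Dnajc16) beside 5.08%. By library size 0 members were higher, beside 2.56% of genes, and 4 were lower, beside 4.84%. The 4 were Dnaja3, Dnajc13, Dnajc16 and Dnajc28, of which Dnajc16 is also among the 4 with TMM scaling. DESeq2 also called 0 genes, and no member. With 3 mice against 3, the exact permutation test of a single gene allows no two-sided p under 0.1.

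Same-numbered NGT and T1D mice deviated together, so both groups were also fitted alone, blocked by mouse number. The study describes no pairing, so the block was chosen from these data and its p-values cannot be read as those of a paired design. In that replicate block 9 members had an unadjusted p under 0.05 and a lower value in T1D mice, beside 5.92% of genes, and 0 a higher one, beside 8.25% of genes. The 9 included Hspa12b at -0.81 (SE 0.17), Dnajc16 at -0.67 (SE 0.17), Hsph1 at -0.72 (SE 0.25) and Dnaja3 at -0.40 (SE 0.11) on the log2 scale of edgeR. Hspa9 stood at -0.39 (SE 0.14), and Dnajc28, Dnajb12, Dnajc27 and Dnajc13 between -0.57 and -0.32. The lowest adjusted p was 0.229, so none was called. Between mice of the same number, 1 to 3, the difference, T1D minus NGT, was -18.8, -32.6 and -28.8 CPM for Dnaja3. For Hspa9 it was -174, -202 and -104 CPM, negative for each number as for Dnaja3. A block over all 9 libraries gave 2 members lower, Hspa12b and Dnajc16, beside 2.35% of genes, and 0 higher, beside 3.04%.

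The J-domain genes of the DNAJC class had negative log2 fold changes of T1D against NGT in 18 of 25 members with TMM scaling (median -0.10) and in 14 of 25 by library size (median -0.01). Without T1D mouse 1, TMM scaling gave 14 of 25 negative, with a median of -0.05. Dnajc16, a J-domain protein of the ER membrane with a thioredoxin-like part, was at 13.7, 22.8 and 16.4 CPM in NGT mice, 7.72, 13.6 and 11.9 CPM in T1D mice and 21.2, 21.3 and 14.7 CPM in Lira mice. The T1D mice lay below all 6 other mice, also by library size. The log2 fold change of T1D against NGT was -0.67 (SE 0.29, edgeR adjusted p = 0.977), and -0.46 (SE 0.28), no longer under 0.05 before adjustment, without T1D mouse 1. With TMM scaling that mouse held the lowest value, as it did for Dnajc11, Dnajc5 and 10 other DNAJC genes, whereas by library size it did so for Dnajc16, Dnajc27 and Dnajc28 alone among the DNAJC genes.

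**Figure D5:**
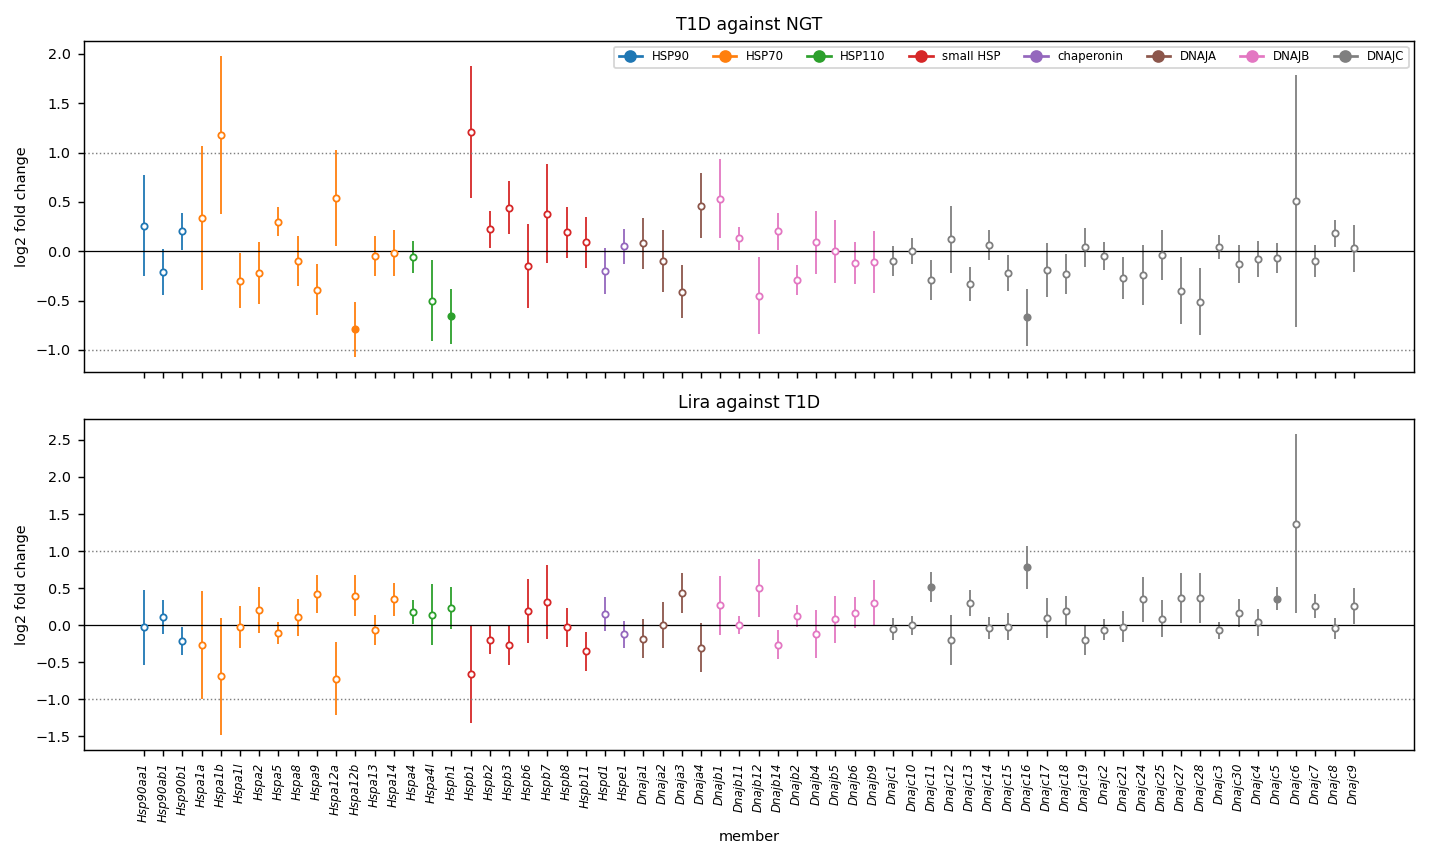
Log2 fold changes with standard errors of the 64 tested members, coloured by family, in T1D against NGT (upper) and Lira against T1D (lower); filled points had an unadjusted p under 0.05, and dotted lines mark a fold of 2. Hspa12b, Hsph1 and Dnajc16 are filled in the upper panel and Dnajc11, Dnajc16 and Dnajc5 in the lower, and none was called after adjustment.

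Liraglutide-treated mice were then compared with untreated T1D mice, which share the STZ injection. With edgeR 0 of 64 members and 0% of genes were called. At an unadjusted p under 0.05, 3 members were higher and 0 lower, beside 1.55% of genes higher and 1.78% lower, or 465 genes. All 3 are DNAJC genes. Groups did not overlap for 4 members that were higher, Dnajc5, Dnajc11, Dnajc13 and Dnajc16, beside 3.74% of genes, and for 0 that were lower, beside 3.4%. By library size the same 4 were higher without overlap, beside 2.42% of genes, and 1 member, Dnajc19, was lower, beside 3.42%. The median log2 fold change was 0.08 beside 0.04 over all genes with 36 of 64 members positive, but by library size it was -0.03 beside -0.05 with 28 of 64 positive. DESeq2 called 1 gene, which was not a member.

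Dnajc16 had the lowest p of the members in Lira against T1D, with a log2 fold change of 0.78 (SE 0.29, edgeR adjusted p = 0.978). T1D mice are shared by both comparisons, so the T1D values enter both folds of Dnajc16. Dnajc11, a mitochondrial J-domain protein that associates with the crista junction complex, was at 40.9, 48.6 and 45.7 CPM in NGT mice, 29.9, 41.4 and 38.9 CPM in T1D mice and 48.3, 67.2 and 42.9 CPM in Lira mice. Every Lira mouse lay above every T1D mouse, with a log2 fold change of 0.52 (SE 0.20, edgeR adjusted p = 0.978). Dnajc5, the cysteine string protein of secretory and synaptic vesicles, was at 65.4, 71.6 and 62.9 CPM in NGT mice, 53.9, 73.3 and 62.8 CPM in T1D mice and 87.5, 81.6 and 74.9 CPM in Lira mice. The Lira mice lay above the other 6 with TMM scaling. The log2 fold change against T1D was 0.36 (SE 0.15, edgeR adjusted p = 0.978) and against NGT 0.29 (SE 0.15). By library size NGT mouse 1 was at 78.7 CPM, above Lira mouse 2 at 74.0 CPM. Dnajc13, an endosomal J-domain protein, was at 34.1 to 43.2 CPM in T1D mice and 43.3 to 50.7 CPM in Lira mice, with the nearest mice at 43.2 and 43.3 CPM. Without T1D mouse 1 the folds were 0.58 for Dnajc16 (SE 0.28), 0.39 for Dnajc11 (SE 0.21) and 0.26 for Dnajc5 (SE 0.15). Of the 64 members only Hsph1 then had an unadjusted edgeR p under 0.05, with a log2 fold change of 0.59 (SE 0.22), beside 0.959% of genes higher and 1.4% lower.

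The direction of several heat-inducible genes against T1D changed when T1D mouse 1 was left out. With it, Hspb1, Hspa1a and Hspa1b had log2 fold changes of -0.66, -0.27 and -0.69, and without it 0.70, 0.90 and 0.65. Dnajb1, Hsph1 and Hspa4l were positive either way, at 0.27, 0.23 and 0.14 with it and 0.51, 0.59 and 0.65 without it. For the 11 HSP70 genes the median was -0.02 with it, with 5 of 11 positive, and 0.28 without it, with 9 of 11 positive. Among the small heat shock genes 2 of 7 were positive with it and 4 of 7 without it. Hspa9 and Dnaja3 had log2 fold changes of 0.42 (SE 0.26) and 0.43 (SE 0.27) against T1D, and Lira mouse 2 was the highest library for both. Hspa5 was at -0.10 (SE 0.15).

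Against NGT mice, Lira mice differ by both STZ and liraglutide. With edgeR 0 of 64 members and 0% of genes were called, and 0 members passed an unadjusted p under 0.05 in either direction, beside 0.487% of genes higher and 0.294% lower, or 109 genes. DESeq2 called 0 genes too. Groups did not overlap for 2 members that were higher, Hspa5 and Dnajc5, beside 2.49% of genes, and for 0 that were lower, beside 1.78%. By library size Hspa5 and Dnajc5 overlapped between the groups. Hspb7, Hspb8 and Dnajc24 were then the 3 higher, beside 1.17% of genes, and Hsph1 and Dnajc21 the 2 lower, beside 3.58%. Dnajb1 had the lowest p, with a log2 fold change of 0.80 (SE 0.40, edgeR adjusted p = 0.999), and Lira mouse 2, at 7.01 CPM, was its lowest library. Lira mouse 3 held its highest value, and the highest sums of erythroid markers, 29142 CPM, and neutrophil markers, 5219 CPM. The part of these markers in Dnajb1 was not tested. Dnajc6 had the largest log2 fold change, 1.87 (SE 1.25), at 0.888, 0 and 0.158 CPM in NGT mice and 1.21, 0.0779 and 2.70 CPM in Lira mice. These values rest on counts of 14, 0 and 2 in NGT mice and 17, 1 and 47 in Lira mice.

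Genes that work with the chaperones were read from lists chosen by function, and none of their members was called in any comparison. Their counts of positive log2 fold changes stand beside 52.1% of all genes in T1D against NGT and 55.3% in Lira against T1D, or 62% and 43.8% by library size. Of the heat shock factors, 3 of 4 were tested, and Hsf1, the master regulator, was at 43.2 to 68.8 CPM in NGT mice, 49.0 to 53.2 CPM in T1D mice and 47.2 to 66.6 CPM in Lira mice, which overlapped. Of 13 co-chaperones and exchange factors of HSP70, 5 were positive in T1D against NGT (median -0.08), 8 by library size (median 0.03), and 0 had an unadjusted p under 0.05. The list of HSP90 co-chaperones holds 14 genes, of which Trap1 is the mitochondrial HSP90 itself. Of the 14, 1 was positive in T1D against NGT (median -0.16), and 5 by library size (median -0.06). Cdc37l1 at -0.59 (SE 0.22) and Ppid at -0.40 (SE 0.17) had an unadjusted edgeR p under 0.05, beside 1.6% of genes lower. In Lira against T1D, 11 of the 14 were positive (median 0.13), and 8 by library size (median 0.03). Fkbp5, which restrains the glucocorticoid receptor and is induced by it, was at 97.7, 194 and 150 CPM in NGT mice, 71.8, 113 and 74.4 CPM in T1D mice and 363, 128 and 115 CPM in Lira mice. Its log2 fold change of Lira against T1D was 1.22 (SE 0.47, edgeR adjusted p = 0.978), and Lira mouse 1 was the highest library. The cytosolic chaperonin TRiC (8 of 9 tested) and prefoldin (6 of 6), which fold actin and tubulin together, had medians of 0.01 and -0.07 in T1D against NGT, and 0.11 and 0.03 by library size.

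The list of ER genes outside the rule holds chaperones and folding enzymes, the stress response factors Xbp1, Atf4, Atf6 and Ddit3, and Herpud1, which serves degradation. Of its 15 genes, 13 were positive in T1D against NGT (median 0.28, and 13 also by library size), 4 were positive in Lira against T1D (median -0.26), and 0 had an unadjusted p under 0.05 in either. Without T1D mouse 1 the counts were 8 of 15 (median 0.02) and 10 of 15 (median 0.03). P4hb, a protein disulfide isomerase, was at 183, 215 and 203 CPM in NGT mice, 247, 230 and 253 CPM in T1D mice and 205, 202 and 203 CPM in Lira mice. Its T1D mice lay above the other 6, with a log2 fold change of 0.28 (SE 0.14, edgeR adjusted p = 0.977). Serpinh1, the collagen chaperone, was at 265 CPM in T1D mouse 1 and at most 103 CPM elsewhere, in the library with the highest osteoblast markers. The 4 genes of mitochondrial proteolysis and disaggregation, Lonp1, Clpp, Clpx and Clpb, had negative log2 fold changes in T1D against NGT (0 of 4 positive, median -0.36) and positive ones in Lira against T1D (4 of 4 positive, median 0.41), with TMM scaling and by library size, with 0 of 4 at an unadjusted p under 0.05. Without T1D mouse 1 the counts were 1 of 4 (median -0.29) and 4 of 4 (median 0.27). These comparisons share the T1D mice. Cryab, the small heat shock gene beside Hspb2, was at 928, 1124 and 574 CPM in NGT mice, 2574, 722 and 577 CPM in T1D mice and 998, 1152 and 811 CPM in Lira mice. T1D mouse 1 was again the highest and mouse 3 the lowest of each group, the order seen for Hspb7 in T1D mice.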

How the data were processed

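The authors sequenced oligo(dT)-enriched mRNA of tibia on DNA nanoballs. They deposited, per gene and library, expected counts (30.2% of values not whole) and FPKM. The submitters' processing notes name mm9, and the aligner, counting tool, annotation and strand setting are not given in the sources used here. Members and lists were chosen with earlier results of these data known. Expected counts were rounded, and the 13960 genes reaching 10 counts in 3 or more of the 9 libraries were fitted with edgeR 4.0.16 (TMM, glmQLFit and glmQLFTest, 1 mean per group, R 4.3.3) and adjusted by Benjamini and Hochberg over all of them. The biological coefficient of variation was 0.433. CPM is the rounded count divided by the TMM-scaled total of tested genes, times 1000000. Values of single genes were also compared by an exact two-sided permutation test over mice. The deposited FPKM served levels between genes.

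The members named were those with an unadjusted p under 0.05 in any comparison, the 3 of highest FPKM in each family, a heat-inducible and an ER stress list, and the 5 with the largest ratio of the highest to the median library (34 in all). Others were named because they did not overlap between groups, under the block or at the ends of a range. Labels give no shared litter or date, and whether the mice of a group were raised together is not stated, so p-values measure the spread between these mice.

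For the pairing check, log2 CPM (prior count 2) deviations from group means were correlated across genes between mice of the same number. NGT and T1D mice gave r = 0.583, 0.647 and 0.283, each over 0.1, so their block by number is given among the results. T1D and Lira mice gave -0.244, 0.615 and 0.271, so theirs is given only as an alternative. No pairing of the mice is described, and mice of different groups are different animals. Correlations of differently numbered mice were not set beside these.

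Alternatives were DESeq2 1.42.0, limma 3.58.1 with an F test on log2(CPM + 1), library size, RLE, no low-count filter, detection in all compared mice, only the 2 groups compared, the replicate block, edgeR's robust option, no fold threshold, FPKM ratios, and leaving out each mouse. Heat shock elements of 2 and 4 units, the counts of members without overlap by library size, and family and partner-list directions by scaling and without T1D mouse 1 were added after seeing the data. Promoter windows are RefSeq's for GRCm38.p6. Reading frames are the longest in GENCODE M21 transcripts and overlaps are from RefSeq genes, used without coordinates because the builds differ. Features of the protein sequences were not analysed here.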

Additional observations from a re-analysis of the deposited data

How the results depend on the processing

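No member was called under any of the 17 alternatives of each comparison. For members that did not overlap between groups or had an unadjusted p under 0.05, 14 log2 fold changes kept their direction in all 224 refits, which included leaving out each mouse. All but that of Hsph1 came from groups that did not overlap, so leaving out a mouse could hardly turn their direction. An unadjusted p under 0.05 was not kept in all refits. Outside these 14, leaving out T1D mouse 1 turned the signs of Hspb1, Hspa1a and Hspa1b and of further members. In T1D against NGT, Hsp90aa1 went from 0.26 to -0.23, Hspb7 from 0.38 to -0.11 and Dnajb4 from 0.09 to -0.43. Dnaja2 went the other way, from -0.10 to 0.13. In Lira against T1D, DESeq2 called 1 gene, not a member, beside 0 in edgeR, and library size in place of TMM gave a median of -0.03 for the members beside 0.08. With each mouse left out in turn, the member median ran from -0.12 to -0.02 in T1D against NGT, from -0.00 to 0.11 in Lira against T1D and from -0.07 to 0.09 in Lira against NGT. In the same refits, the members with an unadjusted p under 0.05 numbered 0 to 3 higher and 0 to 4 lower in T1D against NGT (3 and 0 without T1D mouse 3), 1 to 5 higher in Lira against T1D and 0 to 2 higher in Lira against NGT. DESeq2 gave 1 higher in T1D against NGT. Other tools and fits gave 0 to 9 lower in T1D against NGT, the 9 from the replicate block. In Lira against T1D the block gave 1 member lower, Hspa12a, beside 0 without it, and in Lira against NGT 1 higher, Hspb7, with all 9 libraries. With only the 2 groups, 1 member was higher in Lira against T1D with or without the block, beside 3 with all 9 libraries and no block. It changed no call after adjustment (its median for the members in T1D against NGT was -0.07 with only the 2 groups and -0.06 with all 9 libraries). The limma F test gave 0. Of 102 ratios of group means from deposited FPKM, 6 moved by more than the spread between replicates, all of ER chaperones with small differences, such as Hspa5 at -0.21 in Lira against T1D. The cause was not tested. The range of 1 to 5 in Lira against T1D had its low end without T1D mouse 1 or 3 or Lira mouse 1 or 2, and its high end without T1D mouse 2 or Lira mouse 3. With 3 mice a group and a biological coefficient of variation of 0.433, differences of the size seen for most members were within their standard errors, and Dnajc6 had counts from 0 to 47.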
